A study of Mus musculus with 3 samples.

Results

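Runx1, Runx2 and Runx3, the genes of the 3 mammalian Runx transcription factors, and Cbfb, the gene of their shared partner, were examined in peaks of histone H3 acetylated at lysine 27 (H3K27ac) from thymocytes. They are 4 of 21887 protein-coding genes, listed by name, and each was read at its RefSeq position with the 50 kb on either side. Acetylation of this residue marks active promoters and enhancers. A Runx protein binds DNA through its Runt domain, a fold that all Runx factors share. CBF-beta, the product of Cbfb, does not bind DNA itself but strengthens the binding of each Runx protein and protects it from degradation. Runx1 is needed for blood stem cells to arise and for early T cell development, and in thymocytes lacking CD4 and CD8 it helps to keep Cd4 silent. Runx3 acts in cytotoxic T cells and natural killer cells, and Runx2 is best known as a regulator of bone formation. Each Runx gene is known to have a distal and a proximal promoter, whose transcripts differ at the protein's amino terminus.

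All cells came from thymus of wild-type C57BL/6J mice aged 5 to 7 weeks and carried no deletion or treatment. They were sorted as CD4-CD8- double-negative T cells, labelled CD25+CD44-/+, fixed in 1% paraformaldehyde for 10 minutes and used at once. The series has 2 H3K27ac libraries and 1 input library, and the input was not analysed here. The labels do not say whether the replicates came from separate animals, and no comparison between conditions exists, so the values below describe these libraries and carry no test. The authors' lists held 12377 peaks in replicate 1 and 9477 in replicate 2, with median widths of 615 bp and 561 bp and median fold enrichments of 2.17 and 2.31. Only 27.1% and 41.0% of them had a q-value of at most 0.05, and without read counts in the lists the depth of either library is unknown. Of 14 markers of the labelled cells, 7 had a peak within 1 kb of a gene end in each replicate, against 16.8% of all protein-coding genes. Of these 7, Cd3d, Cd3e and Cd3g are neighbours on chromosome 9, where 73.6% of the peaks of replicate 1 and 88.6% of those of replicate 2 joined a fold under 2 to a −log10 p of at least 5, and its part in these calls was not tested. Their gene ends had 471 bp, 32 bp and 0 bp covered by both replicates. That number of markers was 0 of 7 for later thymocytes, 0 of 6 each for B cells, myeloid cells and thymic stroma, and 1 of 5 for natural killer and innate lymphoid cells. Rag1, Rag2, Notch1, Lck and Cd44, which mark or act in these cells, lacked a gene-end peak in both lists.

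The promoter sequences come first because the peaks of the replicates met them differently. They are RefSeq windows of GRCm38.p6, the same build as mm10, from 250 bases before to 50 after an annotated transcript start, and all 4 genes had at least 1 such window. Runx1 had a distal start at base 92826074 and a proximal start at 92697329 of chromosome 16, which is 128.7 kb downstream. Runx3 had its distal start at 135120645 and its proximal start at 135152545 of chromosome 4, 31.9 kb apart. For Runx2 the table gave 1 start, at 44814627 of chromosome 17, and for Cbfb 1 start, at 105170674 of chromosome 8. The windows of the first start of each Runx gene are shown because they share a run of letters. In them and in the proximal window of Runx3, capitals mark TGTGG or its reverse complement CCACA, the core of the Runx recognition motif. The windows lie at chr16:92826025-92826324 (minus strand), chr17:44814578-44814877 (minus strand), chr4:135120395-135120694 (plus strand) and chr4:135152295-135152594 (plus strand).
Runx1 distal start: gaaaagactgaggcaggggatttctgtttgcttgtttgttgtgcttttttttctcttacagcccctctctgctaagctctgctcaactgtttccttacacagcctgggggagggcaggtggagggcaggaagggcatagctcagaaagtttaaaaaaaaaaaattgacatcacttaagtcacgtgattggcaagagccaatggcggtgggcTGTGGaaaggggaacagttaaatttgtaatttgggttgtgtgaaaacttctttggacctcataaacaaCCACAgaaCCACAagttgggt
Runx2 first start: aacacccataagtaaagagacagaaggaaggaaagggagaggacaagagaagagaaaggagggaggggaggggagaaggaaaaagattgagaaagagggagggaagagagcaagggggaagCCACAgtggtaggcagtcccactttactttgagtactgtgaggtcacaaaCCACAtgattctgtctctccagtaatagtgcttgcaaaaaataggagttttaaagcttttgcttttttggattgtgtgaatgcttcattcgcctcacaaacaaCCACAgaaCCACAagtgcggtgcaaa
Runx3 distal start: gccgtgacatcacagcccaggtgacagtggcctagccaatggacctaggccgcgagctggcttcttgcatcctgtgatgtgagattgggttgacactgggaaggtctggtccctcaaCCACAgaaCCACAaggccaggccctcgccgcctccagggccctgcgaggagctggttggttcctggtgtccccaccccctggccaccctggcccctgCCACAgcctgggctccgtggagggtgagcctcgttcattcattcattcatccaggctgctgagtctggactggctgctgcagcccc
Runx3 proximal start: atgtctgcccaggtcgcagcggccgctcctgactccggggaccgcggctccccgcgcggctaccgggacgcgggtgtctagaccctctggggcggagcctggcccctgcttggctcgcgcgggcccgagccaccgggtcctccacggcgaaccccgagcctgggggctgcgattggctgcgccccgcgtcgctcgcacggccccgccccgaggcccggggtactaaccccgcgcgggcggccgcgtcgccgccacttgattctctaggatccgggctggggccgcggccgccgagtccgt

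The first-start windows of the 3 Runx genes have in common an unbroken run of 18 bases, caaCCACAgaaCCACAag, which holds the Runx core in tandem. It begins 26 bases after the transcript start in Runx1 (chr16:92826031-92826048) and 21 bases after it in Runx2 (chr17:44814589-44814606). In Runx3 it begins 136 bases before the distal start (chr4:135120509-135120526). Among all 32851 promoter windows the run occurred in 4, those of the 3 Runx genes and that of Gm16225, a long non-coding RNA gene that starts on the other strand 269 bp from Runx3 and whose window covers the same site. The longer motif TGTGGT, searched on both strands together with ACCACA, was found 2 times in the distal window of Runx1, 3 times in that of Runx2 and 2 times in that of Runx3. In each window 2 of these matches are the shared run itself, so that only the third match in Runx2 lies outside it. Of all windows, 16.8% held the motif at least 1 time and 1.81% at least 2 times. TGTGGT contains TGTGG, so the counts of the motifs overlap. The proximal windows of Runx1 and Runx3 and the window of Cbfb did not hold TGTGGT. These matches describe letters in the reference and say nothing of binding.

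Letter composition also differed between the distal and proximal starts of Runx1 and of Runx3. No proximal window of Runx2 was given. The GC content was 45.0% in the distal window of Runx1, 45.3% in that of Runx2 and 63.7% in that of Runx3. In the proximal windows of Runx1 and Runx3 it was 69.0% and 77.3%, and in the window of Cbfb 69.7%, against a median of 52.7% over all windows. CpG dinucleotides numbered 2, 2 and 8 in the distal windows of Runx1, Runx2 and Runx3, 35 and 45 in the proximal windows of Runx1 and Runx3, and 30 in that of Cbfb, against a median of 7. Runx3 thus had the GC-richest window at its proximal start.

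No annotated transcript start of the 4 genes lay within 1 kb of peaks of both replicates. For Runx2 only 1 start was given, so its other promoter was not examined. Among 17492 protein-coding genes with a start in the table, 18.1% had such a start. In replicate 1 only Runx3 had a peak within 1 kb of any start, against 26.4% of genes. In replicate 2 Runx1, Runx3 and Cbfb each had such a peak, and Runx2 did not, against 23.7% of genes. Each of these peaks was therefore seen in a single library.

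**Figure D1:**
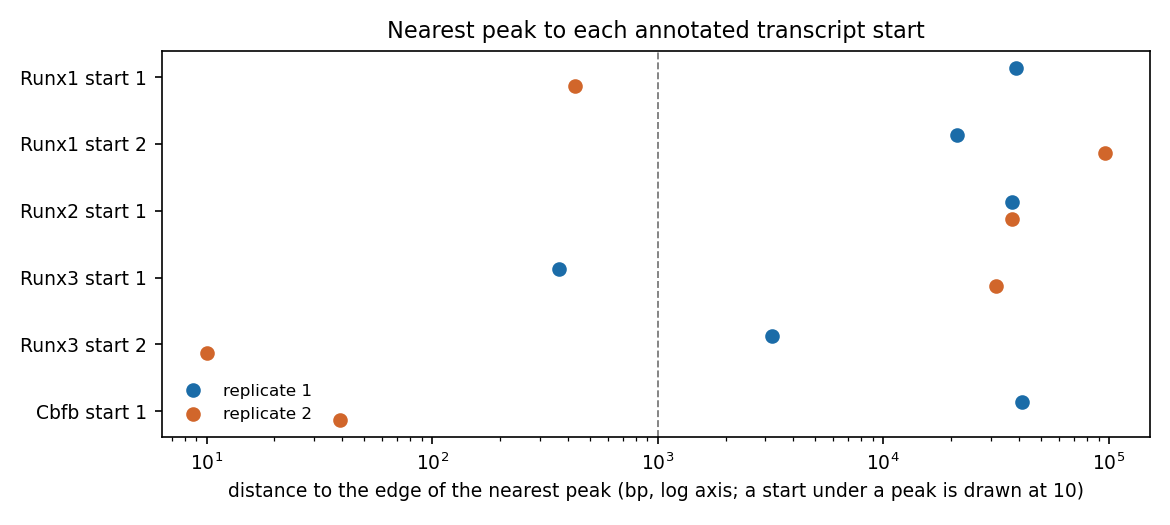
Distance in bp, on a log axis, from each annotated transcript start to the edge of the nearest H3K27ac peak in replicate 1 (blue) and replicate 2 (orange), with the dashed line at 1 kb and a start under a peak drawn at 10 bp. No start has both points left of the line, and the starts of Runx3 have a point each, from different replicates.

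Runx3 was the gene where each replicate marked a different start. In replicate 1 a peak of 377 bp (chr4:135119905-135120281, fold 2.5, −log10 q 1.34) ended 364 bp before the distal start. It lay within Gm16225, close to the start of that gene, so it cannot be assigned to either of these divergent genes. In replicate 2 a peak of 1609 bp (chr4:135152305-135153913, fold 1.91, −log10 q 0.901) covered the proximal start and 290 of the 300 bases of the window printed above. Only 6.10% of the peaks of replicate 2 were wider. The nearest peak of replicate 1 to the proximal start, of 278 bp, lay 3201 bp downstream of it, and the nearest peak of replicate 2 to the distal start was 31.7 kb away. Of all genes with a start in the table, 18.2% had a start peak in each replicate. Among 2761 genes with several starts, 9 (0.326%) had a start peak in each replicate with no start in common, and these 9 were 1.22% of the genes with several starts and a start peak in each replicate. Runx3 was among them.

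Outside its starts, Runx3 had further peaks, almost all in replicate 1. Replicate 1 held 6 peaks out to 50 kb and replicate 2 held 2. A peak of 955 bp in replicate 1 (chr4:135178561-135179515, fold 2.36, −log10 q 0.770) lay 571 bp beyond the 3' end, which made Runx3 a gene with peaks at both ends in replicate 1. A peak of 936 bp (chr4:135098421-135099356) lay 21289 bp before the gene, with a fold of 2.84 and a −log10 q of 1.69. Downstream of the gene, the replicates met 25214 bp from its end. There a peak of 1052 bp in replicate 1 (fold 2.28, −log10 q 0.791) enclosed a peak of 249 bp in replicate 2 (chr4:135203204-135203452, fold 1.79, −log10 q 0.614). Those 249 bp, between Runx3 and its neighbour Clic4, a chloride intracellular channel gene, and at the end of neither, were the sole bases covered by both replicates near Runx3. A further peak of 278 bp in replicate 1 lay 28146 bp from the gene.

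Runx1, a gene of 224.6 kb, had 2 peaks in each replicate, and none of them met. In replicate 2 a peak of 918 bp (chr16:92824729-92825646, fold 2.53, −log10 q 1.3) lay just inside the gene, 428 bp downstream of the distal start. In replicate 1 the nearest peak to that start was 38.8 kb away. That peak, of 1278 bp (chr16:92785979-92787256), had the highest fold of any peak at the 4 genes, 3.84, with a −log10 q of 2.81, and 4.70% of the peaks of replicate 1 had a higher fold. It lay between the distal and proximal starts. Replicate 2 had its other peak in the same stretch, of 1062 bp (chr16:92793303-92794364, fold 2.32, −log10 q 0.827), 6046 bp away. An enhancer active in blood stem cells is known from this stretch between the starts, but its position was not in the sources used here. The fourth peak, of 550 bp in replicate 1 (chr16:92675523-92676072, fold 2.70, −log10 q 1.09), lay 21.3 kb downstream of the proximal start. Around that proximal start neither replicate had a peak within 21 kb, and the nearest one of replicate 2 was 96.0 kb away. The long non-coding genes Gm30281, inside Runx1, and Gm30224, 5318 bp from it, had no peak at their ends.

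Runx2 was the longest of the 4 genes, with 318.8 kb, and the one where the replicates met inside the gene. Replicate 1 had 5 peaks in it and replicate 2 had 4, all in the gene body and none within 1 kb of a gene end. Regions covered by both replicates numbered 3, with 1144 bp in all. The widest, of 714 bp (chr17:44776852-44777565), lay 37.1 kb from the Runx2 start and over the start of Supt3, a gene of the SAGA co-activator complex that begins inside Runx2 and runs the other way, at base 44777166. Its peaks were 714 bp wide with a fold of 1.71 (−log10 q 0.490) in replicate 1 and 767 bp wide with a fold of 2.53 (−log10 q 0.972) in replicate 2. This region therefore lies at the promoter of another gene. The other 2 regions, of 350 bp (chr17:44734769-44735118) and 80 bp (chr17:44736082-44736161), lay under a single peak of replicate 1 of 1447 bp (fold 2.32, −log10 q 0.806), at 79.5 kb and 78.5 kb from the Runx2 start and at no other gene's end. In replicate 2 the peaks there were 350 bp and 229 bp wide, with folds of 2.71 and 2.17 and −log10 q of 1.302 and 0.891. As only 1 start of Runx2 was given, whether these 2 regions lie at its other promoter was not tested.

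The other peaks of Runx2 had no partner. In replicate 1 they were 1187 bp, 748 bp and 810 bp wide, at 212.3 kb, 200.7 kb and 173.0 kb from the start, with folds of 2.88, 1.84 and 1.79. In replicate 2 a peak of 261 bp with a fold of 1.97 lay at 142.6 kb. The antisense gene Runx2os3 inside Runx2 had no peak at its ends. Runx2 lies on chromosome 17, where 12.9% of the peaks of replicate 1 and 12.4% of those of replicate 2 joined a fold under 2 to a −log10 p of at least 5, a combination found on none of chromosomes 4, 8 and 16. None of the 9 Runx2 peaks had it.

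Cbfb, of 47.3 kb, had 1 peak in each replicate, 40.8 kb apart. In replicate 2 a peak of 435 bp (chr8:105170713-105171147) began 39 bp downstream of the transcript start and so touched 11 of the 300 bases of the promoter window, with a fold of 2.10 and a −log10 q of 0.787. In replicate 1 a peak of 364 bp (chr8:105211989-105212352, fold 2.06, −log10 q 0.859) lay 41.3 kb downstream of the start, inside the gene. Both were narrower than the median peak of their replicate. No peak of either replicate lay outside Cbfb within 50 kb, although 4 protein-coding neighbours reach into the 50 kb beyond its 3' end and Ces4a lies before it.

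**Figure D2:**
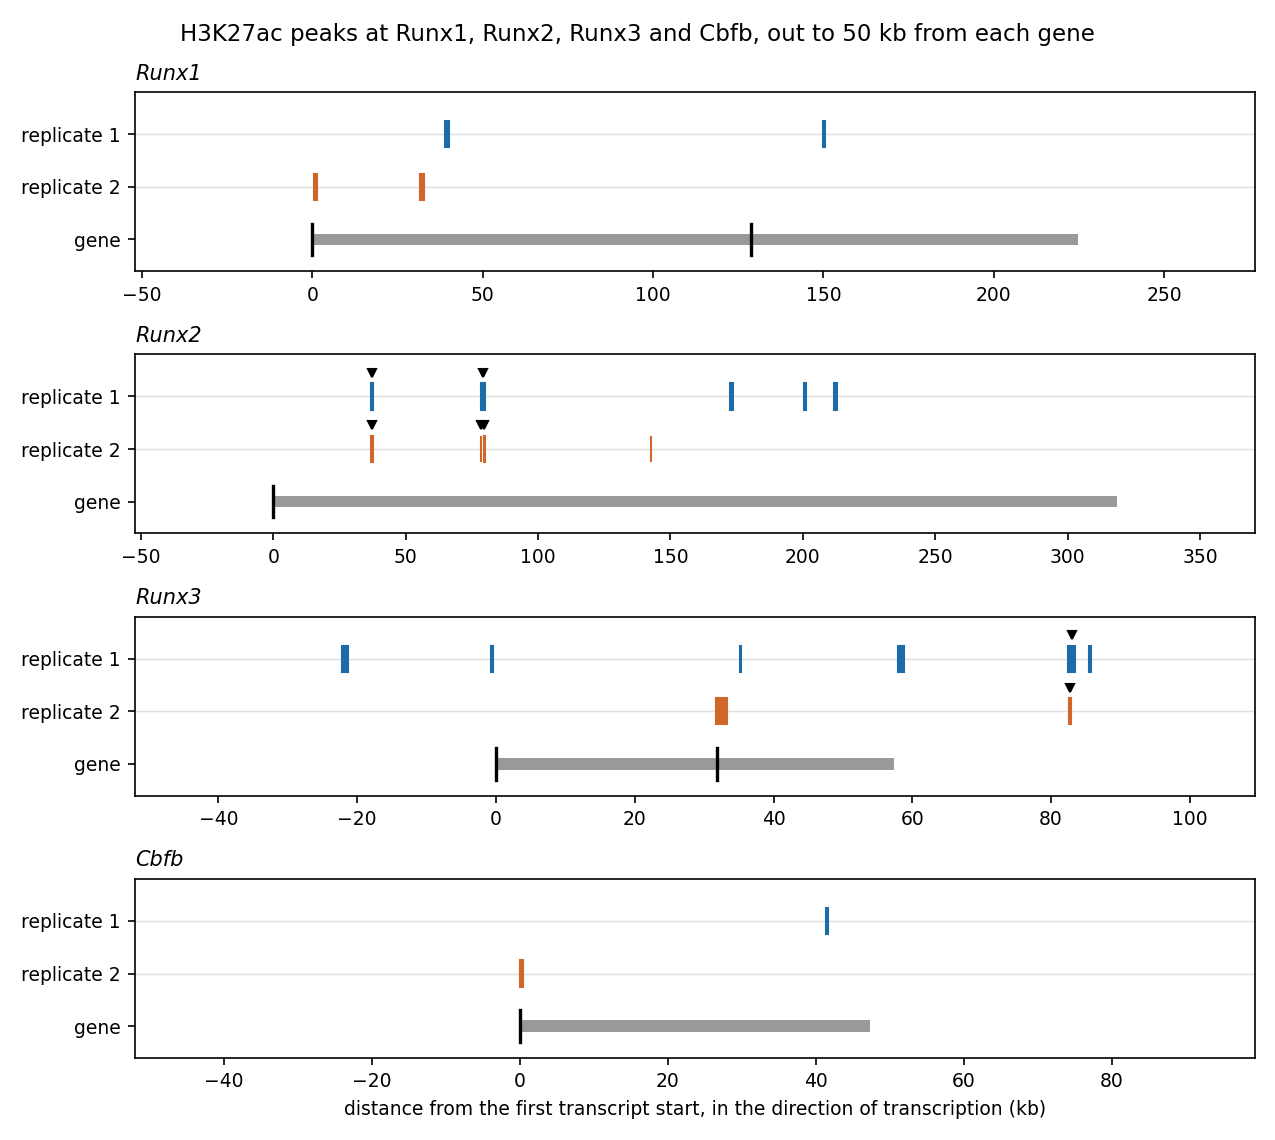
H3K27ac peaks of replicate 1 (blue) and replicate 2 (orange) along each gene (grey bar, with black ticks at annotated transcript starts), placed by their distance in kb from the first start in the direction of transcription, each with a thin outline that keeps narrow peaks visible. Triangles mark peaks that meet a peak of the other replicate: they stand at 2 places inside Runx2, of which the nearer to the start is the start of Supt3, and at 1 place downstream of Runx3.

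Set side by side, the paralogues differed in number, place and width of peaks. Counting peaks in the gene or within 1 kb of its ends, Runx1 had 2 and 2 in replicates 1 and 2, Runx2 had 5 and 4, Runx3 had 3 and 1, and Cbfb had 1 and 1. At least 1 such peak was present at 34.0% of all protein-coding genes by replicate 1 and at 29.0% by replicate 2. Each of the 4 genes had one in each list, as did 22.0% of all genes. Length bears on these counts. Among genes within a factor of 2 of the length of each of the 4, 43.4% to 51.4% had any such peak in replicate 1. In replicate 2 the shares were 37.1% to 42.1%. Per 100 kb of gene the peaks numbered 0.890 and 0.890 for Runx1, 1.57 and 1.25 for Runx2, 5.23 and 1.74 for Runx3 and 2.11 and 2.11 for Cbfb. Runx3 thus had the densest peaks in replicate 1, and Cbfb in replicate 2. This count takes in peaks up to 1 kb outside the gene, as 2 of the 3 Runx3 peaks of replicate 1 were. By share of the gene covered the order differed. Runx3 was lowest in replicate 1, with 0.485%, against 0.769% for Cbfb, 0.814% for Runx1 and 1.54% for Runx2. In replicate 2 Runx3 was highest, with 2.81%, against 0.919% for Cbfb, 0.882% for Runx1 and 0.504% for Runx2.

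Ranks were also taken among genes of like length, within a factor of 2. As many peaks as Runx2 or more were held by 2.58% of 1203 such genes in replicate 1 and by 1.41% in replicate 2. For Runx1 the shares were 20.1% and 12.7% of 1803 genes, for Runx3 2.0% and 38.2% of 5755 genes, and for Cbfb 43.4% and 37.1% of 6430 genes. Runx3 was thus the rarest by count in replicate 1 and Runx2 in replicate 2. The order by covered bp was another. As many bp as Runx2 or more were held by 1.41% and 6.82% of genes of like length in replicates 1 and 2, as many as Runx1 by 11.5% and 4.55%, as many as Runx3 by 17.3% and 4.38%, and as many as Cbfb by 37.0% and 27.1%. In replicate 2 Runx2 thus ranked behind Runx1 and Runx3 by bp. Regions of both replicates in the gene or at its ends were present at 19.0% of all protein-coding genes and, of the 4, at Runx2 only. As many as 3 were held by 0.499% of genes of like length, and as many bp as the 1144 of Runx2 by 4.24%. Of these, 1 region, with 714 bp, lay over the start of Supt3, and the other 2 lay under 1 peak of replicate 1. Counted as peaks of replicate 1 that met a peak of replicate 2, Runx2 had 2, and 2.74% of genes of like length had as many. Extending the search to 50 kb added Runx3, and 39.9% of all genes had a shared region in that span.

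**Figure D3:**
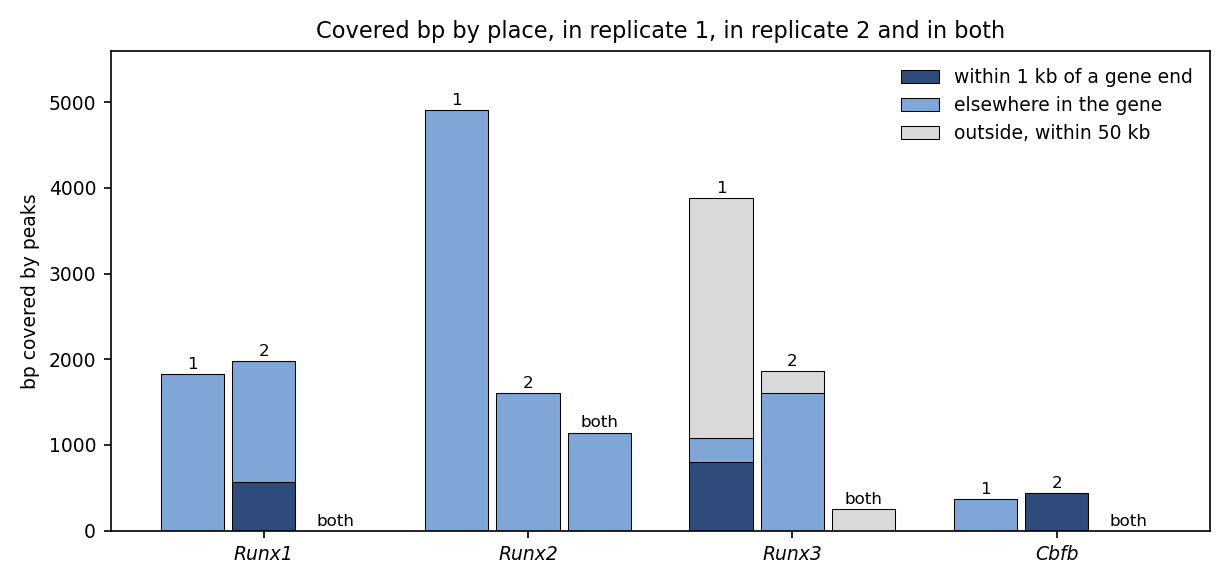
Bp covered by H3K27ac peaks at each gene in replicate 1, in replicate 2 and in both, stacked by place. Runx2 has bars in the gene body alone, with 4906 bp, 1607 bp and 1144 bp, and Runx1 and Cbfb have none covered by both.

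Gene ends carried few of these peaks. None of the 4 genes had a gene-end peak in both replicates, against 16.8% of all protein-coding genes. In replicate 1 only Runx3 had gene-end peaks (25.1% of genes), and in replicate 2 Runx1 and Cbfb had them (22.2% of genes), so that 3 of 4 had one in either replicate (30.5% of genes). With 4 genes these counts do not set the family apart from other genes. Of the 23 peaks of the 4 genes out to 50 kb, 4 were at gene ends, 15 elsewhere in a gene and 4 outside. Of the 14 in replicate 1, 3 (21.4%) met a peak of replicate 2, against 34.1% of all peaks of replicate 1. Of the 9 in replicate 2, 4 (44.4%) met a peak of replicate 1, against 44.8%.

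Width, fold and q-value of the peaks were set beside those of all peaks. Their median width was 779 bp in replicate 1 and 435 bp in replicate 2, against 615 bp and 561 bp for all peaks. Runx2 peaks ranged from 714 to 1447 bp in replicate 1 and from 229 to 767 bp in replicate 2. Runx1 peaks ranged from 550 to 1278 bp in replicate 1 and from 918 to 1062 bp in replicate 2. Folds had a median of 2.30 in replicate 1 and 2.17 in replicate 2, near those of all peaks. A q-value of at most 0.05 was reached by 3 of 14 peaks in replicate 1, against 27.1% of all peaks, and by 1 of 9 in replicate 2, against 41.0%. A q-value of at most 1e-05 was reached by none of the 23, against 7.95% of all peaks in replicate 1 and 9.44% in replicate 2. The 4 peaks with a q-value of at most 0.05 were the Runx1 peak of fold 3.84, the peak of replicate 1 beside the distal start of Runx3, the peak 21289 bp before Runx3, and the 350 bp peak in Runx2 of replicate 2. None of the 4 met a peak of that quality in the other replicate.

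**Figure D4:**
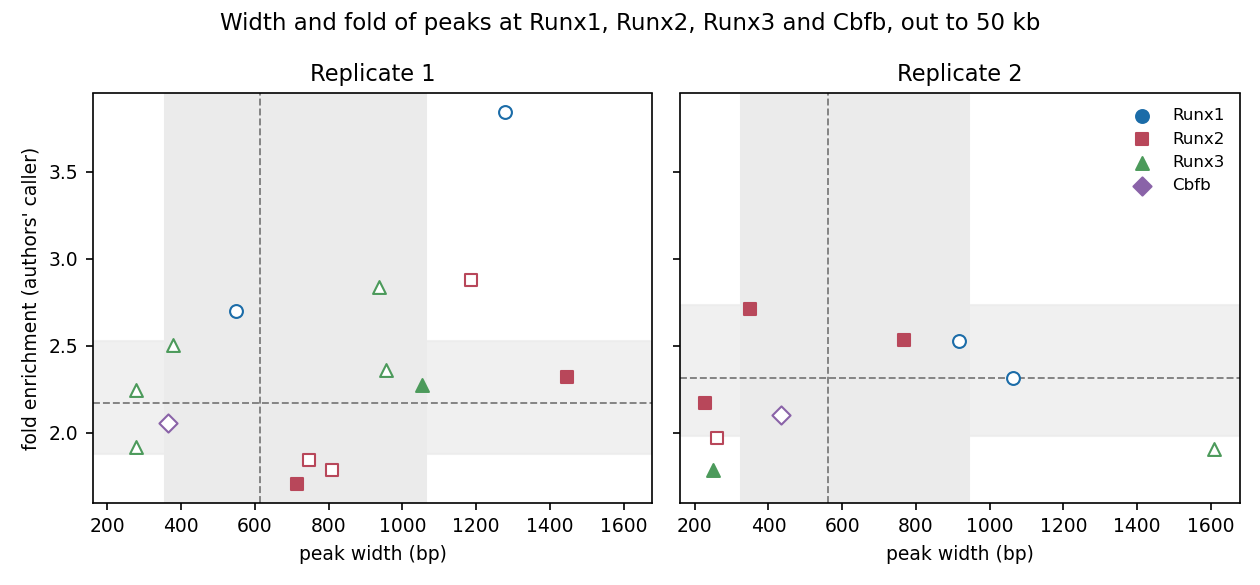
Width in bp and fold enrichment of each peak at Runx1, Runx2, Runx3 and Cbfb out to 50 kb, by replicate, with filled symbols for peaks that meet a peak of the other replicate, dashed lines at the medians of all peaks and grey bands from the lower to the upper quartile. The Runx1 peak with a fold of 3.84 stands above the rest in replicate 1, and the widest peak in replicate 2 is the one of 1609 bp over the proximal start of Runx3.

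Genes with the most alike peak pattern were sought over 6 values, the log2 of 1 plus the bp covered at gene ends, elsewhere in the gene and outside within 50 kb in each of the 2 replicates, among genes of like length. Closest to Runx1 were Lmbr1, Smarca2 and Mrps28, at Euclidean distances of 1.13, 1.36 and 2.19, against a median of 17.6 over 1803 genes. Closest to Runx2 were Tspan9, St8sia1 and Csmd2, at 0.72, 0.84 and 0.89 (median 16.2). For Runx3 they were Nup107, Colq and Cluap1, at 2.10, 2.30 and 3.04 (median 18.4), and for Cbfb they were Ccz1, Gm4070 and Wdr12, at 0.39, 0.47 and 0.56 (median 15.5). Likeness rests here on 2 libraries and largely on which of the values are 0. Overlap of the replicates was not among the values. Tspan9, St8sia1 and Csmd2 had 1, 1 and 0 shared regions in the gene or at its ends, against 3 for Runx2. Lmbr1, Nup107 and Cluap1 had 1, against 0 for Runx1 and Runx3. The other named genes had 0, as did the genes they were matched to.

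Of 22 listed genes of Runx partner proteins, 7 (31.8%) had a gene-end peak in both replicates, against 16.8% of all protein-coding genes, a further 2 in replicate 1 alone, 5 in replicate 2 alone and 8 in neither. The median covered by both replicates at the gene ends was 0 bp, in the list and over all genes. Prmt1, a methyltransferase that modifies Runx1, had 1458 bp covered by both, and the acetyltransferase genes Ep300 and Crebbp had 1239 bp and 483 bp. Myb, a factor that often binds beside Runx, had 885 bp. Among co-repressors, Sin3a had 779 bp and Cbfa2t2, a relative of the gene fused to human RUNX1 in leukaemia, had 570 bp. Tle3, a Groucho co-repressor that binds the Runx carboxyl terminus, had peaks that met over 29 bp only. Tle3 and Sin3a lie on chromosome 9, where the low folds with small p described above are common, and the part of that in these calls was not tested. Of the other Groucho genes Tle1 and Tle2 had none, Tle4 had one in replicate 2 and Tle5 in replicate 1. Ets1, which binds DNA together with Runx1, had no gene-end peak but 3 peaks of each replicate in the gene or at its ends, with 740 bp covered by both. Ets1 lies on chromosome 9 too.

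Among 20 listed T cell genes with known Runx sites or regulation, 3 (15.0%) had a gene-end peak in both replicates, 4 in replicate 1 alone, 1 in replicate 2 alone and 12 in neither. That share is near the 16.8% of all genes. The 3 were Tcf7, which encodes TCF-1 (650 bp covered by both), Satb1, a chromatin organiser of thymocytes (160 bp), and Cd3e, a CD3 chain (32 bp). The median over the list was 0 bp, as over all genes. Cd3e lies on chromosome 9, described above. Cd4, Cd8a and Zbtb7b, which Runx proteins are known to control through silencers or enhancers, had no peak in the gene or at its ends in either replicate. Neither had Itgae, Tbx21 and Ifng, genes of effector cells in which Runx3 acts. Rag1, Rag2 and Notch1, named above as genes that mark or act in the sorted cells, had no such peak either. Absent peaks were thus not limited to genes of later or effector cells. Counted anywhere in the gene, 7 of the 20 had a region covered by both replicates, against 19.0% of all protein-coding genes, among them Bcl11b (2441 bp) and Gata3 (1349 bp), both factors of T cell commitment.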

How the data were processed

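H3K27ac peaks of 2 libraries of double-negative thymocytes were used. Per the submitters' processing notes, alignment was by Bowtie2 (mm10) and peak calling by MACS 1.4.2. The files follow the MACS2 broad peak layout, so the version is uncertain. The peak names show removal of duplicates and a separate call for each sample. The fold of each peak is a ratio that the authors deposited, as are each peak's −log10 p-value and its −log10 q-value. The deposited score, 10 times the −log10 q, was not used. Cutoff and control are not stated in the sources used here, and the depth per sample is unknown.

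Gene positions and promoter windows came from RefSeq tables of GRCm38.p6. A peak counted at a gene end when it met the 1 kb on either side of an annotated end by at least 1 bp, else in the gene body, else outside within 50 kb. A shared region is an interval covered by a peak of each replicate. The genes and lists were chosen with earlier results of these data known. Genes were named by rule: the 4 genes, genes with an end at a shared region near them, list members with gene-end peaks in both replicates, and for each of the 4 the 3 genes nearest in pattern. Other list members, and the markers without a gene-end peak in both replicates, were named after their values were seen. Counting was checked on simulated data. Python 3.11.15, pandas 2.3.3 and numpy 2.4.6 were used. A planned comparison of Runx protein sequences was not made. Alternatives are given in the closing section, and those on transcript starts and on regions at other genes were added after seeing the data.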

Additional observations from a re-analysis of the deposited data

How the results depend on the processing

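Counts near the genes rest on weak peaks and on the overlap of 2 replicates. With q of at most 0.05 or 1e-05, Runx2 and Runx3 both had 0 shared regions (3 and 1 with all peaks), and Runx1 and Cbfb stayed at 0. Gene-end peaks in both replicates were then at 577 and 160 protein-coding genes (3674 with all peaks), shared regions in 673 and 179 (4161), and gene-end peaks at 2 and 2 of the Runx partners (7) and 1 and 1 of the T cell genes (3). With a flank of 25 kb or 100 kb Runx3 had 0 or 2 shared regions. A peak of either replicate gave 4 regions at Runx1, 6 at Runx2, 7 at Runx3 and 2 at Cbfb, with 6685 and 8967 genes, 14 partners and 8 T cell genes. Without replicate 1 or replicate 2, the counts were 2 each at Runx1, 4 to 5 at Runx2, 2 to 6 at Runx3 and 1 each at Cbfb, from 4864 to 5495 and 6339 to 7435 genes, 9 to 12 partners and 4 to 7 T cell genes. T cell genes numbered 5 with a gene-end window of 2.5 kb and 6 at transcript starts. Runx2 had 2 regions with an overlap of at least 50% of the narrower peak, and 2 without the region at Supt3. Stricter settings cannot lower the 0 of Runx1 and Cbfb, and the gene-end counts do not use the overlap, so those values say nothing of stability. The number of the 4 genes with a gene-end peak in both replicates was 0 with a gene-end window of 2.5 kb, 2 without replicate 1, 1 without replicate 2 and 3 with a peak of either. The files give no read counts, so absent peaks do not show absent acetylation. No paired analysis was possible because there is a single group.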

Other observations

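Between 50 and 100 kb from the genes, peaks lay mostly at other genes. At Clic4, downstream of Runx3, peaks of both replicates covered 620 bp (chr4:135271952-135272571), with folds of 1.70 and 2.44 in replicates 1 and 2. These 620 bp lay within 1 kb of the transcript start of Clic4, at base 135272760, the end farther from Runx3. The Clic4 region was wider than any shared region nearer to Runx3. Downstream of Cbfb, replicate 1 had 3 peaks, at the ends of 4931428F04Rik, Exoc3l, E2f4, which encodes a cell cycle factor, and Elmo3, with folds of 2.06, 1.80 and 2.10. Replicate 2 had none there. Beyond Runx2 a single peak of replicate 2, of 362 bp, lay 62925 bp from the gene at no annotated end, and 65645 bp before Runx3 replicate 1 had a peak of 422 bp.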
